A study of Mus musculus with 16 samples.

Results

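Of the 5777 forebrain cells in the deposited matrix, 61 met a rule on 5 genes for basal forebrain neurons marked by Lhx8 and Zic genes. A cell had to hold at least 1 unique molecular identifier (UMI, the tag of 1 captured RNA molecule) of Lhx8, at least 3 UMIs of Lhx8, Zic1, Zic4 and Gbx2 together, and at most 3 UMIs of Neurod6. That was 1.06% of the cells, with a Clopper-Pearson 95% interval of 0.809 to 1.35%. The rule thus chose the cells by measured values, and levels of those 5 genes are a description. The exceptions are a measurement on UMIs that the choice had not used, and a count of Lhx8 by class as a check on free RNA.

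All cells came from the forebrain of wild-type CD1 mice, an outbred strain, at embryonic day 15.5, with no treatment. The 16 samples share these labels and were deposited as 1 pooled matrix with no map from cells to samples. Cells of 1 pool are not replicates, so no p-value is given, and every interval below is a 95% interval that covers counting error only. How the tissue was dissected and whether embryos were pooled is not given in the sources used here.

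Lhx8 encodes a LIM homeodomain transcription factor of the ventral forebrain. It is made in the medial ganglionic eminence, the preoptic area and the septum, and it is needed for the cholinergic neurons of the basal forebrain and striatum. Nkx2-1 is the homeodomain factor that gives the medial ganglionic eminence its identity, upstream of both Lhx8 and Lhx6. Lhx6 is held by the GABAergic neurons of that eminence, including the interneurons that migrate to the cortex. Zic1 and Zic4 are zinc finger factors of the septum and neighbouring ventral midline, and Gbx2 is a homeodomain factor that is also found in young cholinergic neurons of the ventral forebrain.

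Lhx8 lies on mouse chromosome 3 at 154306294 to 154330659 on the minus strand of genome build mm10 (GRCm38; GENCODE annotation). AI606473, the measured gene outside the rule with the largest ratio against cells without Lhx8, lies beside it on the plus strand at 154330821 to 154334254. It was found in 28 of the 61 cells. The gap between both genes is shown because it is the whole stretch between their annotated ends, and capitals mark its 3 CG dinucleotides (chr3:154330660-154330820, plus strand, RefSeq GRCm38.p6).
Lhx8-AI606473: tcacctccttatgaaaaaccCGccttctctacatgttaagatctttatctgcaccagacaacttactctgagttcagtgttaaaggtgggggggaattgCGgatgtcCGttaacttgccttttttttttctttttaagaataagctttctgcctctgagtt
The stretches before the annotated starts of Nkx2-1 (chr12:56536909-56537158, minus strand) and Slc10a4 (chr5:73006654-73006882, plus strand) are shown because these genes, neither of them in the rule, were among those with the largest differences described below. Capitals again mark CG dinucleotides.
Nkx2-1: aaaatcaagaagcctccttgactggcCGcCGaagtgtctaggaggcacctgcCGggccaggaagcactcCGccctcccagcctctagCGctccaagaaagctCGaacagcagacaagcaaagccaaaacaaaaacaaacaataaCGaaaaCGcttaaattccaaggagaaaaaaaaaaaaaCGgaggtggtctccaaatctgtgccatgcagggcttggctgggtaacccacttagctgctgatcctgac
Slc10a4: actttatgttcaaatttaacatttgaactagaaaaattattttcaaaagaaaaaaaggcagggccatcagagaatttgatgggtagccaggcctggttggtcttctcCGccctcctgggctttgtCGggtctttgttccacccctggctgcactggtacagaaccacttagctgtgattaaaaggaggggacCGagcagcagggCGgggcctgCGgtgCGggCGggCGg
The gap beside Lhx8 held 1.86 CG per 100 bases and 40.4% G or C, against medians of 2.33 and 52.7% over 32851 RefSeq promoter windows of 300 bases. The stretches before Nkx2-1 and Slc10a4 were denser in CG, at 3.60 and 3.49 per 100 bases. Searched on both strands, the motifs TAATTA (in 5.29% of all windows), CAAGTG (13.6%), CTAATG (7.36%) and CCTGCTG (10.5%) were not found in the windows of Lhx8, AI606473 or Nkx2-1. In all, 17 windows of 15 genes were searched. CCTGCTG was found 1 time each in the windows of Slc10a4 and Nell1, CAAGTG 1 time each in those of Zic4, Gbx2 and Ecel1, and CTAATG 1 time in 1 of the 3 windows of Lhx6.

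The genes of the rule were held unevenly by the 61 cells. Lhx8 had 228 UMIs, from 1 to 12 per cell with a median of 3, and 55 cells had at least 2. Zic1 had 129 UMIs in 32 cells, up to 13 in a cell, and Zic4 had 25 UMIs in 9 cells. Gbx2 had 53 UMIs in 16 cells, up to 8. In all, 34 cells held Zic1 or Zic4 and 27 held neither, so the Zic genes are not a property of every cell. Of the 16 cells with Gbx2, 7 also held a Zic gene, and in 18 cells Lhx8 was the only gene of the sum. Neurod6, a factor of cortical excitatory neurons, was at 0 in 42 cells, and the highest cell had 2 UMIs. Zic1 and Zic4 share 3398 bases on chromosome 9 on opposite strands, and whether the counting used strand is not given, so their reads cannot be fully told apart.

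Near the limits of the rule, 14 cells had a sum of exactly 3 and 47 had 4 or more. Just outside were 19 cells with Lhx8 and a sum of 2, and 49 with a sum of 1. A further 29 cells with Lhx8 had more than 3 UMIs of Neurod6, and 9 of those reached a sum of 3. Nkx2-1, which the rule did not use, was in 36 of the 47 cells with a sum of 4 or more, in 5 of the 14 with 3, in 14 of the 19 with 2 and in 20 of the 49 with 1. The share with Nkx2-1 did not fall steadily across the limit.

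The matrix divides into 2 runs of cells, found from the place of the last Y-linked UMI and of the first UMI of 11 genes listed out of alphabetical order. The labels name neither run. All 61 cells lay in the first run, 1.67% of its 3651 cells (1.28 to 2.14%), and 0 of the 2122 cells of the second run met the rule, which allows a share of up to 0.141%, taken as 3 cells of the total. The second run held 0 UMIs of Lhx8, Gbx2 and AI606473, 5 of Nkx2-1 against 761 in the first, and 10 of Isl1 against 765. Lhx6, with 877 and 631 UMIs, and Neurod6, with 17001 and 14015, were frequent in either run. What the runs stand for was not tested, and values within the first run are given beside named ratios that they move by over 1.5 times or across the 2-fold limit.

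The 61 cells summed to 201679 UMIs, with a median of 2858 per cell and a range of 1139 to 12790. The median over all cells was 3258. A UMI of at least 4 of 24 cell cycle genes was found in 13 of the 61, or 21.3% (11.9 to 33.7%), against 26.3% of all cells. All 61 held a UMI of Dcx or Tubb3, genes of young neurons, and the 13 cells with cell cycle genes are among them. Dcx alone was in 93.4% of the 61 cells. It was in 99.2% of Lhx6 cells, 93.8% of striatal-rule cells and 80.4% of Zic cells, groups defined below. Its presence was thus not particular to the 61 cells.

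Free RNA in droplets can give UMIs to cells that do not make a gene, so Lhx8 was counted by class within the first run. Of 1339 cells with more than 3 UMIs of Neurod6, 2.17% held an Lhx8 UMI (1.46 to 3.10%), at a median depth of 4274 UMIs. Of 169 cells that met a rule of the same form for Lhx6 interneurons, 24.9% did (18.5 to 32.1%), at a median of 2624 UMIs. Of 94 cells that met such a rule for striatal neurons, 2.13% did (0.259 to 7.48%, median 3089). Of 170 cells with at least 2 Nkx2-1 UMIs, 34.1% did (27.0 to 41.8%, median 3066). Lhx8 was thus spread over the first run at a low share, and the shares among cells with Nkx2-1 or Lhx6 lay above it.

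Nkx2-1 and Lhx6 marked most of the 61 cells without having been used to choose them, apart from the label's own marker list, which names Nkx2-1. Nkx2-1 had 126 UMIs in 41 cells, from 0 to 10 with a median of 1. Lhx6 had 135 UMIs in 47 cells, from 0 to 15 with a median of 2. At least 1 of both was in 55 cells, both were in 33, and 6 cells held neither. Of the 5 markers of the label, Nkx2-1 is the only one that the rule did not use.

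**Figure D1:**
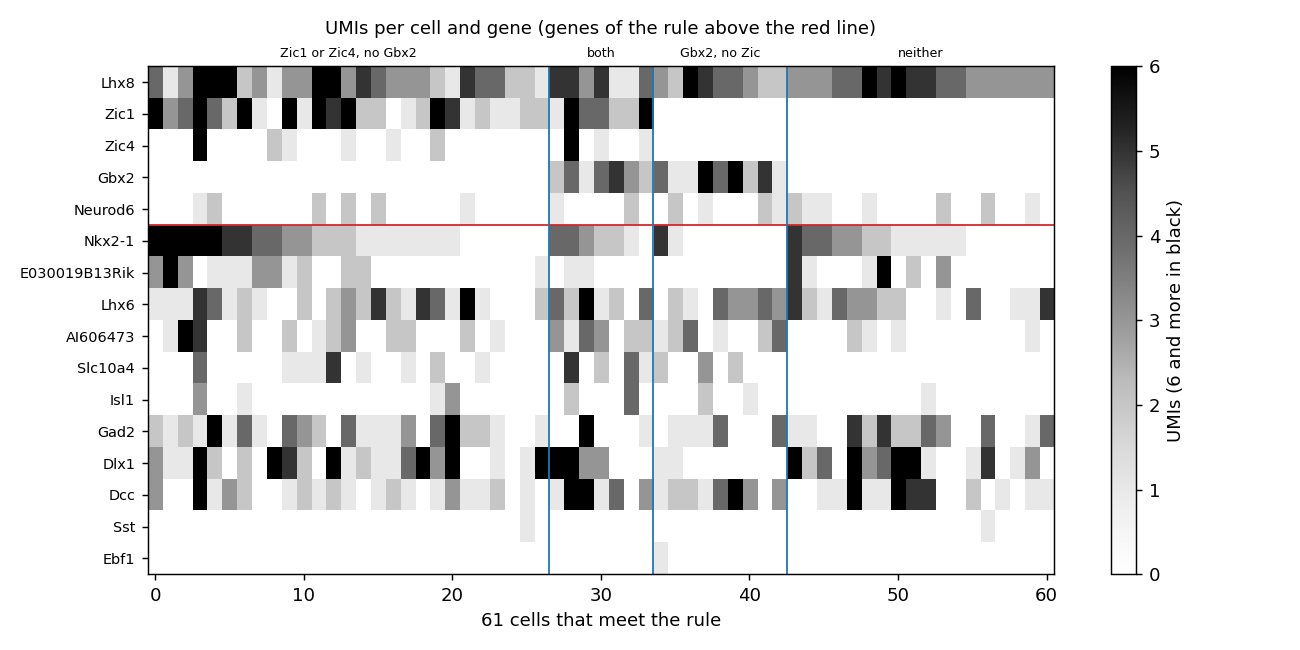
UMIs of rule genes (above the red line) and of other genes (below it) in each of the 61 cells, 1 column per cell, with grey level from 0 to 6 and more UMIs. Lhx8 is in every column by the rule, Zic1 or Zic4 in 34 and Gbx2 in 16, while Nkx2-1 is in 41 and Lhx6 in 47.

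To compare levels, the UMIs of each group were added up and divided by the total of the group, as counts per 1000000 UMIs (CPM). A gene with at least 50 UMIs over both groups was taken as measured and was called higher or lower at a ratio of 2 or more. Against the 5619 cells without an Lhx8 UMI, of which 2459 had more than 3 UMIs of Neurod6, 746 of 11697 genes were higher (6.38%) and 1318 were lower (11.3%). With the ratio's interval also required to exclude 1, 414 were higher (3.54%) and 457 lower (3.91%). A gene with few UMIs can pass the ratio through counting error, so each named ratio is given with its interval.

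AI606473 led the list. It had 63 UMIs in 28 of the 61 cells, up to 6 in a cell, and 14 UMIs in the 5619 cells without Lhx8. Its level was 312 CPM against 0.665 CPM, a ratio of 470 (260 to 908), and 289 (160 to 559) against the first run alone. Thinned to 1000 UMIs per cell, a depth that every cell reaches, 29.5% of the 61 cells kept a UMI of it (18.5 to 42.6%), against 0.0407% of 2459 cells with Neurod6 and no Lhx8. Its annotated start lies 162 bases from that of Lhx8, and the 2 genes point away from each other. No other measured gene outside the rule came near this ratio.

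Nkx2-1 stood at 625 CPM in the 61 cells and 24.8 CPM in the others, a ratio of 25.2 (20.6 to 30.7), or 15.7 (12.8 to 19.1) within the first run. After thinning it was in 36.1% of the 61 cells (24.2 to 49.4%) and in 0.529% of the Neurod6 cells, and unthinned in 67.2% and 2.16% at median depths of 2858 and 4211. E030019B13Rik, listed by RefSeq as a synonym of Sfta3-ps, is a long noncoding RNA gene whose RefSeq model ends 2538 bases from Nkx2-1. It had 55 UMIs in 21 cells, and 20 of those 21 also held Nkx2-1. Its ratio was 19.5 (14.3 to 26.0), or 11.98 (8.81 to 16) in the first run, so both neighbours on chromosome 12 were higher. Lhx6 was at 669 CPM against 59.4 CPM, a ratio of 11.3 (9.36 to 13.5).

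Shh, the secreted signal of the ventral forebrain, was named after its values were seen, since with 33 UMIs in both groups it fell under the 50 UMIs needed. It had 12 UMIs in 7 of the 61 cells and 21 UMIs in the 5619 cells without Lhx8. Its ratio was 59.7 (26.8 to 127). All 7 cells held Nkx2-1. Other genes of the hedgehog pathway were not higher. Of 10 measured, 0 were higher and 5 lower, with a median log2 ratio of -1.01, against 0 over all genes. The coreceptor Gas1 was 3.33-fold lower (1.61 to 8.28), and Boc, another coreceptor, had 1 UMI and a ratio of 10.9 downward (1.96 to 432).

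Slc10a4, a vesicular transporter relative known from cholinergic and monoaminergic neurons, was the second gene by ratio. It had 36 UMIs in 16 cells, up to 5, and reached 179 CPM against 5.37 CPM, a ratio of 33.3 (22.2 to 48.8), or 22.5 (14.9 to 33.1) in the first run. Of the 16 cells, 13 held Zic1, 12 held Nkx2-1 and 14 held Dcc, the netrin receptor that steers growing axons. Other cholinergic genes gave little. Of 13 on the list, 6 were in the matrix and 3 were measured. Isl1, a LIM homeodomain factor of cholinergic and striatal neurons, had 18 UMIs in 9 cells and a ratio of 2.57 (1.52 to 4.09), which was 1.61 (0.947 to 2.56) within the first run. The choline transporter gene Slc5a7 and the acetylcholinesterase gene Ache had 1 UMI each, and Ngfr and Bche had 0, which allows up to 14.9 CPM. Chat, Slc18a3 and Gbx1 were not analysed here. Of the 3 measured, 2 were higher (Slc10a4 and Isl1) and 0 lower, and within the first run 1 was higher.

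Zic2, a relative of the Zic genes of the rule, was 2.03 times higher (1.07 to 3.49), and 1.45 times without the cell that held 4 of its 13 UMIs. In the first run its ratio was 1.68 (0.889 to 2.90), under 2-fold.

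GABAergic genes were mostly higher. A UMI of Gad1, Gad2 or Slc32a1 was in 49 of the 61 cells, while Slc17a6, Slc17a7 or Slc17a8, the vesicular glutamate transporter genes, were in 6. Of 6 measured GABAergic genes 5 were higher and 0 lower, with a median log2 ratio of 1.57. Slc32a1, which loads GABA into vesicles, was 5.13-fold higher (3.43 to 7.41). Abat, which degrades GABA, was 4.87-fold higher (3.61 to 6.43), and Gad2, which makes it, 4.15-fold (3.39 to 5.03). Gad1, which also makes it, was at 2.09 (1.56 to 2.75). Within the first run the ratio of Gad1 was 1.58, under 2-fold, whereas Gad2 was at 3.01 and Slc32a1 at 3.97. The transporter Slc6a11 had 0 UMIs. Of 15 glutamatergic and cortical excitatory genes 13 were lower and 0 higher, with a median log2 ratio of -2.63, a list on which the Neurod6 limit of the rule acts. Neurod2 was 6.14-fold lower (4.22 to 9.31) and Tbr1 3.84-fold lower (2.56 to 6.06). Bhlhe22, Neurod1 and Neurog2 had 2, 2 and 1 UMIs, with ratios downward of 33.2 (9.17 to 274), 32.4 (8.96 to 267) and 48.8 (8.75 to 1927).

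Transcription factors of the ventral forebrain split in both directions. Of 41 measured, 18 were higher and 11 lower, with a median log2 ratio of 0.27. Those higher included the Dlx factors of GABAergic progenitors and neurons, which were named after their values were seen: Dlx5 at 4.68 (3.53 to 6.08), Dlx1 at 3.76 (3.19 to 4.40) and Dlx2 at 3.65 (3.07 to 4.32). Tshz2 was 9.08-fold higher (4.24 to 17.3). Zfhx3 and Pbx3, also named after their values were seen, were at 4.05 (3.05 to 5.29) and 3.42 (2.60 to 4.41). Each was found in fewer cells, 18 and 21 of 61, with up to 11 and 8 UMIs in a cell. Among those lower, Foxp1 was 6.29-fold lower (2.89 to 17.2), Nr2f2 5.26-fold (2.55 to 13.1) and Meis2 3.94-fold (2.80 to 5.72). Meis2 and Foxp1 were also found in 75.7% and 40.4% of the cells with Neurod6 and no Lhx8, before thinning. Ebf1, a striatal factor, had 1 UMI, with a ratio downward of 7.91 (1.42 to 313), or 12.2 in the first run. Among 14 measured LIM homeodomain factors and cofactors, 2 were higher (Lhx6 and Isl1) and 2 lower. Lhx2, which patterns the cortex, was 7.27-fold lower (4.41 to 13), and the cofactor gene Ldb2, with 0 UMIs, was at least 4.17-fold lower.

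**Figure D2:**
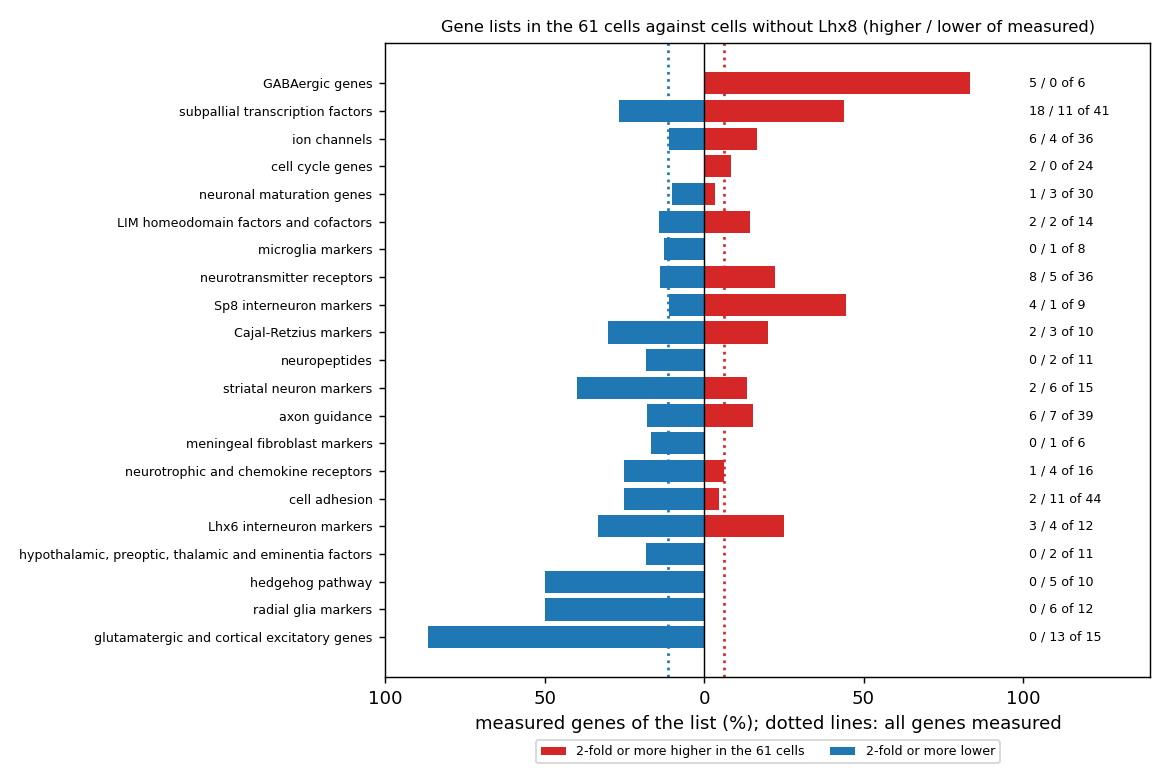
Share of the measured genes of each list that were 2-fold or more higher (right, red) or lower (left, blue) in the 61 cells than in cells without Lhx8, in percent, with the counts at the right edge and dotted lines at 6.38% and 11.3% for all genes measured. GABAergic genes reach 5 of 6 on the right and cortical excitatory genes 13 of 15 on the left.

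Genes of the neuronal surface were mixed. Of 36 measured neurotransmitter receptor genes 8 were higher and 5 lower, with a median log2 ratio of 0. Gabrb2, a subunit gene of the GABA-A receptor, was among the higher, with 47 UMIs and a ratio of 3.75 (2.74 to 5.01). Grik3, a glutamate receptor gene, was at 2.81 (2.10 to 3.69). Gria1, an AMPA receptor gene, had 3 UMIs and a ratio downward of 7.23 (2.47 to 35.1). Of 39 axon guidance genes 6 were higher and 7 lower, with a median log2 ratio of -0.07. Efnb3 was 3.71-fold higher (2.90 to 4.69), Ntn1, the gene of netrin itself, 3.78-fold (1.87 to 6.86), and Dcc 2.22-fold (1.86 to 2.63). Dcc had 134 UMIs in 45 cells, up to 12 in a cell. Epha3 and Sema6d had 2 UMIs each, with ratios downward of 5.84 (1.61 to 48.3) and 5.68 (1.57 to 46.9). Of 44 cell adhesion genes 2 were higher and 11 lower, with a median log2 ratio of -0.22. Nrxn3 was 3.19-fold higher (2.42 to 4.14) and Cntn2, of growing axons, 10.6-fold lower (5.58 to 23.2).

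Ion channel genes gave 6 higher and 4 lower of 36, with a median of 0.22. Cacna2d2 and Kcnmb4 were 2.88-fold (1.52 to 4.97) and 2.52-fold higher (1.40 to 4.19), and Cacna2d1 had 1 UMI with a ratio downward of 20.5 (3.67 to 809). Neuronal maturation genes stayed near the level of all genes, with 1 higher and 3 lower of 30 and a median of 0.03. The RNA-binding protein gene Elavl4 was 2.05-fold higher (1.75 to 2.38), and the splicing factor genes Rbfox1 and Rbfox3 were 4.63-fold (2.44 to 10.1) and 3.55-fold lower (1.63 to 9.68). Neuropeptide genes gave 0 higher and 2 lower of 11, among them Sst with 2 UMIs and a ratio downward of 10.7 (2.97 to 88.6). Of 16 neurotrophic and chemokine receptor genes 1 was higher and 4 were lower, with Ntrk3 3.33-fold (1.61 to 8.29) and Fgfr3 3.58-fold lower (1.40 to 13.2). Of 24 cell cycle genes 2 were higher and 0 lower. Cenpf was at 2.21 (1.54 to 3.08), but 13 of its 36 UMIs came from 1 cell and without it the ratio was 1.51, against 1.79 for all 61 within the first run. Marker lists of other neurons were mixed as well. Lhx6 interneuron markers gave 3 higher and 4 lower of 12, with a median of -0.32, Sp8 interneuron markers 4 and 1 of 9, with a median of 0, and striatal markers 2 and 6 of 15, with a median of -0.02. Cajal-Retzius markers gave 2 higher and 3 lower of 10, and hypothalamic, preoptic, thalamic and eminentia factors 0 and 2 of 11, with medians of 0 and -0.34. Some of these counts moved within the first run. Cell cycle genes then gave 1 higher and 3 lower of 24, striatal markers 0 and 7 of 15, with a median of -0.65, Sp8 interneuron markers 4 and 2 of 8, with a median of 0.73, and GABAergic genes 3 and 0 of 6. Neuropeptide genes gave 0 and 3 of 9, ion channel genes 7 and 2 of 31, neurotransmitter receptors 7 and 3 of 33, and Cajal-Retzius markers and hypothalamic, preoptic, thalamic and eminentia factors had medians of -0.51 and -0.51.

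Several other genes with large ratios were carried by few molecules. Ecel1, an endopeptidase gene, had 9 UMIs in 6 cells and a ratio of 13.8 (6.06 to 27.8), or 8.90 in the first run. Fam222a had 19 UMIs in 13 cells and a ratio of 11 (6.48 to 17.7). Adarb2, Dmrtb1 and Cpne4 had 13, 11 and 11 UMIs, with ratios of 11.3 (5.85 to 20.1), 10.8 (5.25 to 20.2) and 9.82 (4.77 to 18.2). Adarb2 is on the list of Sp8 interneuron markers. Galntl6, BC030500 and Apela had 5, 6 and 5 UMIs, with ratios of 11.3 (3.52 to 28.5), 10.6 (3.75 to 24.5) and 10.4 (3.25 to 26.0). Nell1 had 6 UMIs, 4 of them in 1 cell, and its ratio of 11.8 was 4.01 without that cell. Beyond cortical genes, the lowest ratios belonged to Ttr of choroid plexus, with 5 UMIs and 27.2-fold lower (11.7 to 83.8), and to the embryonic globin gene Hbb-y, with 3 UMIs and a ratio downward of 22.4 (7.65 to 108). Ndrg1, Sparc, Emx2 and Nr4a3 had 1 UMI each, with ratios downward of 21.6 (3.87 to 852), 17.4 (3.11 to 687), 17.4 (3.13 to 689) and 17.4 (3.11 to 686). Within the first run Ttr and Hbb-y were at 42.6 and 36.3, and Ndrg1 and Nr4a3 at 14.3 and 11.4.

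Markers of other cell types were scarce in the 61 cells. Microglia markers gave 2 UMIs with 6 of 8 genes at 0, and endothelial and mural markers 1 with 8 of 9 at 0. Meningeal markers gave 3 UMIs with 6 of 8 genes at 0, and choroid plexus markers 5 with 4 of 5 at 0. Oligodendrocyte precursor markers gave 4 UMIs with 3 of 5 genes at 0, and erythroid markers 3 with 1 of 2 at 0. In that order they summed to 9.92, 4.96, 14.9, 24.8, 19.8 and 14.9 CPM. Cells without Lhx8 had 51.5, 20.5, 63.0, 704, 36.1 and 335 CPM. Lhx6 cells, a group defined below, had 0, 6.94, 1.39, 43.0, 13.9 and 12.5 CPM. The 61 cells were thus below cells without Lhx8 on each list, but not below Lhx6 cells on every list. Radial glia markers were at 1478 CPM summed, against 3136 CPM in cells without Lhx8, with 298 UMIs in 41 cells and 0 to 58 per cell. Of these 12 genes 6 were lower and 0 higher, with a median log2 ratio of -1.04, Fabp7 being 2.72-fold lower (2.18 to 3.46) and Slc1a3, with 3 UMIs, at a ratio downward of 8.65 (2.96 to 42.0).

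**Figure D3:**
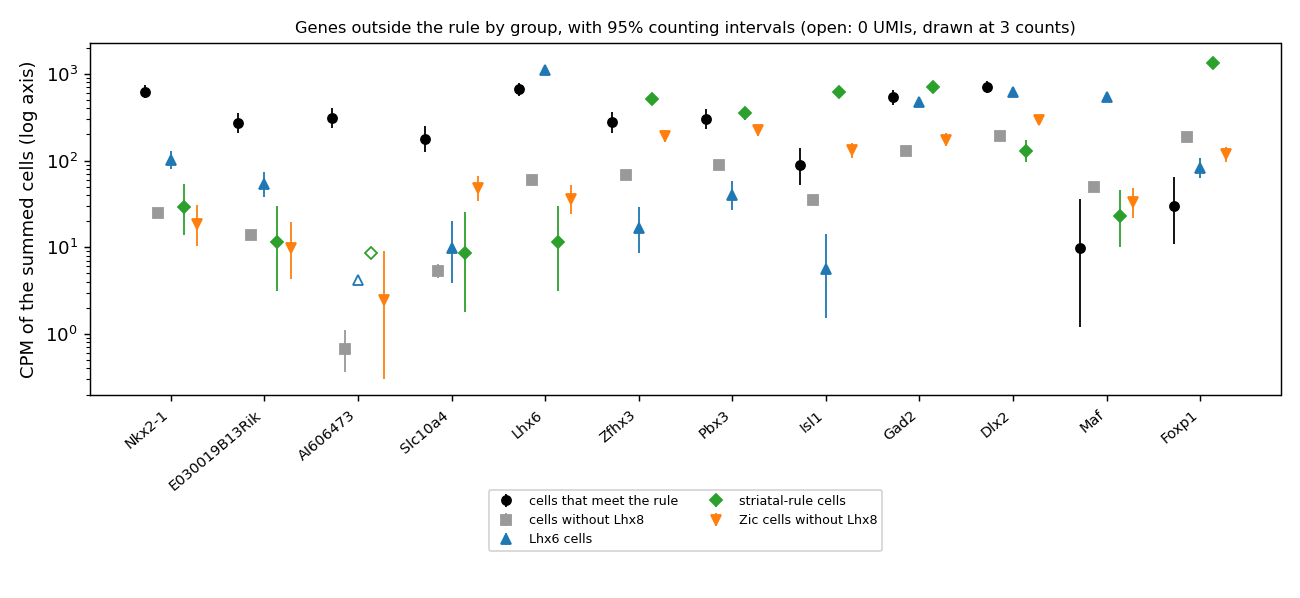
CPM of genes outside the rule in the summed cells of 5 groups, on a log axis, with 95% counting intervals. AI606473, Nkx2-1 and E030019B13Rik are highest in the 61 cells, at 312, 625 and 273 CPM.

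Lhx6 interneurons come from the medial ganglionic eminence, 1 of the places where Lhx8 is made. The origin of the 61 cells was not tested. A rule of the same form (Lhx6 at least 1, Lhx6, Sst and Npy together at least 3, Neurod6 at most 3 UMIs, no Lhx8) chose 253 cells with a median of 2588 UMIs, with 127 from the first run, 125 from the other and 1 in neither. Against these, 115 of 4316 measured genes were higher in the 61 cells (2.66%) and 251 lower (5.82%), of which 222 (5.14%) had an interval beyond 1. Against the 127 cells of the first run alone, 52 of 2836 were higher and 90 lower. Ratios that the first run moved by over 1.5 times or across the limit are therefore given for both, since the second run, which holds none of the 61 cells, lowers the comparison cells' Nkx2-1.

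Of 24 measured ventral forebrain transcription factors 3 were higher in the 61 cells and 8 lower, with a median log2 ratio of -0.21, or 3 and 6 of 21 in the first run, with a median of -0.02. Nkx2-1 was among the 10 genes with the largest ratios. It was at 625 CPM against 101 CPM, a ratio of 6.17 (4.59 to 8.34), and against 187 CPM in the first run, a ratio of 3.33 (2.47 to 4.53). AI606473 had 0 UMIs in the 253 Lhx6 cells, so it was at least 75.0-fold higher, and at least 38.9-fold within the first run. E030019B13Rik was 5.04-fold (3.28 to 7.80) and 2.61-fold higher (1.70 to 4.04). Zfhx3 was 16.7-fold higher (8.83 to 34.2), or 8.64-fold (4.58 to 17.7) in the first run, and Pbx3 7.51-fold (4.75 to 12.1), or 5.65-fold (3.36 to 9.88). Asb4, Rgma, Pou3f2, Mest and Rrm2 were 8.81-, 6.39-, 5.52-, 4.87- and 4.69-fold higher, and 4.57-, 4.37-, 3.70-, 3.22- and 2.68-fold in the first run. Rgma is a guidance molecule, Pou3f2 a neuronal POU factor and Rrm2 an enzyme subunit of dividing cells. All 10 of these genes stayed past 2-fold within the first run.

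Of 8 measured Lhx6 interneuron markers 0 were higher and 6 lower, with a median log2 ratio of -2.60. In the first run these were 0 and 4 of 6, with a median of -1.61. The comparison cells were chosen by Lhx6, Sst and Npy, and a marker can reach 50 UMIs through those cells alone. These counts are therefore a description and no test of the 61 cells. The genes named next had the smallest ratios of all measured. A gene at 0 UMIs is ranked there by its bound, so it can fall behind genes with 1 or 2 UMIs. Maf, a factor of cortical interneurons, had 2 UMIs in the 61 cells, against 537 CPM in the Lhx6 cells, with a ratio downward of 54.2 (14.9 to 449). In the first run it was 33.8. Gria1 had 3 UMIs and a ratio downward of 53.7 (18.3 to 261), and Neto1, of glutamate receptor complexes, 2 UMIs and 27.7 (7.57 to 230), which were 32.8 and 18.4 in the first run. Dlgap1, a synaptic scaffold gene, was 22.2-fold lower (8.58 to 81.9). Nxph2 was at 0 UMIs and at least 13.9-fold lower, or at least 9.18-fold in the first run. Dgkg, Elfn1 and Rora had 1 UMI each, with ratios downward of 34.7 (6.12 to 1382), 15.1 (2.60 to 608) and 14 (2.40 to 564). In the first run Dgkg was at 22.1, and all 3 fell under the 50 UMIs needed. Npas1, also at 1 UMI, was at 19.3 (3.35 to 774), but in the first run at 5.401 with an interval that included 1. The neuropeptide gene Sst, part of the Lhx6 rule, is given as counts only: 2 UMIs in the 61 cells and 1586 in the Lhx6 cells.

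Axon guidance genes moved in both directions against the Lhx6 cells, with 5 of 20 higher, 3 lower and a median log2 ratio of -0.07, or 3 of 14 higher and 1 lower in the first run. The members named here were chosen after their values were seen. Dcc was 4.43-fold higher (3.41 to 5.77), or 3.94-fold (2.90 to 5.40) in the first run, and after thinning it was in 42.6% of the 61 cells (30.04 to 55.9%) and 9.49% of the Lhx6 cells (6.17 to 13.8%). Robo1, a Slit receptor gene, was 3.57-fold higher (2.43 to 5.25), or 4.797-fold (2.89 to 8.24). Nrp2 and Robo2 were at 2.54 (1.56 to 4.09) and 2.20 (1.37 to 3.48), and at 1.85 and 1.74, under 2-fold, in the first run. Epha5 was 6.52-fold lower (4.17 to 10.8). Dcc was also frequent in the Neurod6 cells, at 28.6% after thinning, so it does not set the 61 cells apart from every other class.

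The chemokine receptor genes that guide cortical interneurons were lower as well. Ackr3 was 3.78-fold lower (2.48 to 6.06), or 3.33-fold in the first run, and Cxcr4 had 3 UMIs with a ratio downward of 12 (4.03 to 59.1), or 7.20 in the first run. Over the list of neurotrophic and chemokine receptors, 0 of 8 were higher and 4 lower, with a median log2 ratio of -1.27, or 0 and 2 of 4 in the first run. Cell adhesion genes gave 0 higher and 7 lower of 17, and neurotransmitter receptors 0 and 6 of 14. In the first run these were 0 and 2 of 11, and 1 and 3 of 10. GABAergic genes gave 1 higher and 1 lower of 5, with a median of -0.27. Gad2 was at a ratio of 1.14 (0.908 to 1.42), Abat at 2.54 (1.75 to 3.68) and, within the first run, 1.78, and Gad1 was 2.36-fold lower (1.77 to 3.20). Cell cycle genes were higher in 7 of 11, but in 1 of 7 within the first run. Cells with at least 4 such genes made up 21.3% of the 61 and 9.09% of the Lhx6 cells, and without those cells the log2 ratios of Nkx2-1 and Zfhx3 were 3.36 and 4.23.

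**Figure D4:**
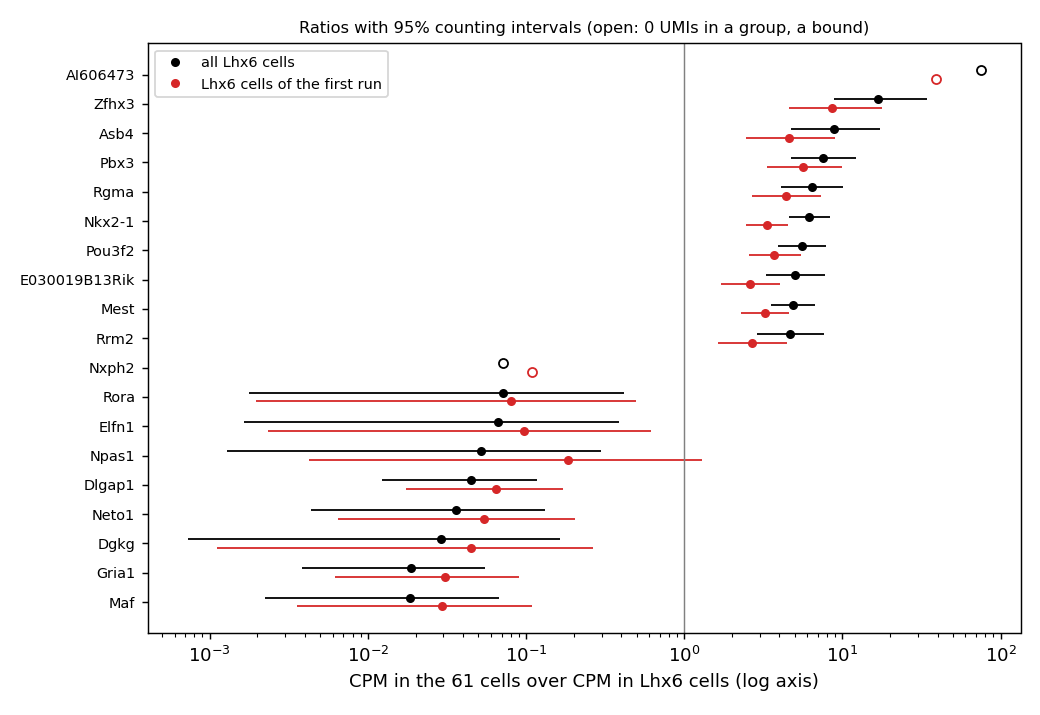
Ratio of CPM in the 61 cells to CPM in Lhx6 cells for the 10 genes with the largest and 9 of the 10 with the smallest ratio, on a log axis with 95% counting intervals, against all 253 Lhx6 cells and against the 127 of the first run. The ratios of the higher genes move toward 1 in the first run, Nkx2-1 from 6.17 to 3.33, and stay above 2.

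Striatal projection neurons are another ventral class. A rule on Ebf1 and Six3 (Ebf1 at least 1, sum at least 3, Neurod6 at most 3, no Lhx8) chose 96 cells with a median of 3105 UMIs, 92 of them in the first run. Of 2715 measured genes 76 were higher in the 61 cells (2.8%) and 104 lower (3.83%). Lhx6 was 57.7-fold higher (22.0 to 215), Nkx2-1 21.5-fold (11.3 to 46.0) and E030019B13Rik 23.5-fold (8.68 to 89.4), and AI606473 at least 35.9-fold. Factors of medial eminence neurons and of GABAergic progenitors followed, with Sox6 at 7.05 (4.04 to 13.1), Sp9 at 6.07 (3.65 to 10.5) and Dlx2 at 5.43 (3.86 to 7.78). Dlx1as, at 8.02 (4.63 to 14.7), is antisense to Dlx1, and without strand their reads cannot be told apart. Gm17750 was at 15 (8.90 to 26.9) and the kainate receptor gene Grik3 at 5.33 (3.04 to 9.82).

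Striatal markers were lower in 7 of 8 measured. The comparison cells were chosen by striatal genes, and a marker can count as measured through those cells alone. This count is therefore a description and no test of the 61 cells. Foxp1 was at 29.8 CPM against 1342 CPM, 45.1-fold lower (20.6 to 124), and Zfp503, with 2 UMIs, had a ratio downward of 56.4 (15.4 to 469). Tac1, the substance P precursor gene, and Igf2 had 1 UMI each, with ratios downward of 37.4 (6.48 to 1501) and 49.1 (8.58 to 1963). Dlk1, Irs1, Neurod1 and Sst had 2 UMIs each, with ratios downward of 28.7, 24.3, 17.0 (10.7 in the first run) and 14.9, and Col4a1 and Ephb1 had 3 each, with 14.6 and 12.9. Isl1 was at 89.3 CPM against 620 CPM, 6.95-fold lower (4.29 to 12). GABAergic genes gave 0 higher and 0 lower of 5, Gad2 at a ratio of 0.754 (0.596 to 0.949). Zfhx3 and Pbx3, which set the 61 cells apart from Lhx6 cells, were at 0.547 (0.398 to 0.743) and 0.862 (0.623 to 1.18) here.

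A Zic rule (Zic1, Zic4 and Gbx2 together at least 3, Neurod6 at most 3, no Lhx8) chose 184 cells with a median of 3853.5 UMIs, 162 of them in the first run. Of the 61 cells, 24 also reach that sum without Lhx8, so the others differ from the Zic cells in both conditions. Of 4910 genes 152 were higher in the 61 cells (3.1%) and 440 lower (8.96%), of which 391 (7.96%) had an interval beyond 1. Again Nkx2-1, at 33.6 (19.6 to 61.9), E030019B13Rik, at 27.5 (13 to 66.9), and Lhx6, at 18.6 (12.4 to 28.9), were higher, and AI606473 had 2 UMIs in the Zic cells, a ratio of 126 (33.5 to 1064). Slc10a4 was 3.70-fold higher (2.28 to 5.97), and 11.4% of the Zic cells held it before thinning. Gad2 was 3.07-fold higher (2.36 to 3.97). Bend5, Rgma, Arl4d, Gm17750, Grik3 and Dlx1as were 7.05-, 5.76-, 5.72-, 5.39-, 5.05- and 4.55-fold higher. Zic2 was 4.01-fold lower (2.30 to 7.67).

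The Zic cells hold markers of other cell types. Their summed choroid plexus markers were at 14223 CPM, against 24.8 CPM in the 61 cells, their meningeal markers at 1029 CPM against 14.9 CPM, and their Cajal-Retzius markers at 1986 CPM against 159 CPM. Ttr was 552-fold lower in the 61 cells (236 to 1700). Igf2, Nhlh2, Sparc, Emx2, Sparcl1, Neurog2, Dcn and Cacna2d1 had 1 UMI each in the 61 cells, with ratios downward from 31.5 to 112, and Hbb-y had 3 with 53.1. The part of those other cell types in the 440 lower genes was not tested.

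When the cells were chosen on a random 50% of the UMIs and measured on the remainder, 30 cells met the rule. Of these, 25 held Lhx8 in the remainder, at 1074 CPM against 5.94 CPM in the comparison cells. Zic1 was at 770 CPM against 82.2 CPM, a ratio of 9.36 (6.73 to 12.7), Zic4 at 6.46 (2.76 to 12.9) and Gbx2 at 199 (103 to 388). The choice by a few UMIs thus carried over to UMIs that it had not used.

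The 61 cells also resembled each other in genes that the rule did not use. The genes of all 4 rules were left out, but AI606473 was not. In 30 principal components, 31.8% of their 15 nearest neighbours (291 of 915) were other cells of the 61, and 53 of the 61 had at least 1. With 15 components the share was 14.8%. The 61 cells are 1.06% of all cells and 1.67% of the first run. Neighbours are shared between cells and are not independent draws, so no interval is given. With 30 components, a further 16.9% of the neighbours were cells with Lhx8 outside the rule. Lhx6 cells made up 7.54%, Zic cells 4.92% and striatal-rule cells 0.437%. Over the whole matrix these groups are 4.38%, 3.19% and 1.66% of the cells, and cells with Lhx8 outside the rule are 1.68%. Cells with more than 3 UMIs of Neurod6, which are 43.1% of the matrix, made up 3.06%. Of 21 clusters, 1 of 276 cells held 40 of the 61, and its leading genes by ratio included Lhx8, Zic4, Sorcs3, Tmem130, Magel2, Fgf15, Zic1, Nkx2-1 and Fign. The 61 cells are 14.5% of that cluster, so they are a small set within a broader group. A cluster led by Slc18a2, Gsx2 and Sp9 held 7 of them, and 6 lay in a cluster led by Olig2, Gsx2 and mitotic genes, all 6 of them with at least 4 cell cycle genes.

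Within the 61, the 16 cells with Gbx2 differed from the 45 without. A cell without Gbx2 or a Zic gene had to reach its sum through Lhx8, so the levels of the rule genes are not compared here. Nkx2-1 was at 299 CPM with Gbx2 and 812 CPM without, 2.72-fold lower, as a ratio 0.368 (0.221 to 0.586). E030019B13Rik had 2 UMIs in the cells with Gbx2 and 53 in the others, a ratio of 0.0656 (0.00774 to 0.249). Gad2 was at 0.371 (0.213 to 0.614), Dlx1 at 0.302 (0.187 to 0.468), Dlx2 at 0.350 (0.216 to 0.547), Sox6 at 0.206 (0.0794 to 0.452) and Sp9 at 0.353 (0.173 to 0.664). Lhx6 was at 0.959 (0.659 to 1.38). In the other direction, Zfhx3 was at 529 CPM against 133 CPM, 3.99-fold higher (2.20 to 7.51), and Pbx3 at 529 CPM against 172 CPM, 3.08-fold higher (1.78 to 5.45). The neuronal microtubule genes Mapt and Stmn2 were at 1.78 (1.38 to 2.28) and 1.41 (1.12 to 1.77). Foxp2 was at 8.11 (2.26 to 44.0), with 9 of its 17 UMIs in 1 cell.

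Depth and division went along with the Gbx2 split. Cells with Gbx2 had a median of 3906 UMIs against 2679, included both cells over 10000 UMIs, and had 2 of the 13 cells with at least 4 cell cycle genes. Without those 13 cells the ratios were 0.346 (0.196 to 0.581) for Nkx2-1, 0.426 for Gad2, 0.290 for Dlx1, 0.145 for Dlx2, 3.77 (2.01 to 7.43) for Zfhx3 and 2.35 (1.32 to 4.24) for Pbx3. Without the 2 deepest cells Nkx2-1 was at 0.377, Zfhx3 at 4.002 and Dlx2 at 0.0660. All 6 kept their direction, while the size of the Dlx2 ratio rested on those few cells.

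**Figure D5:**
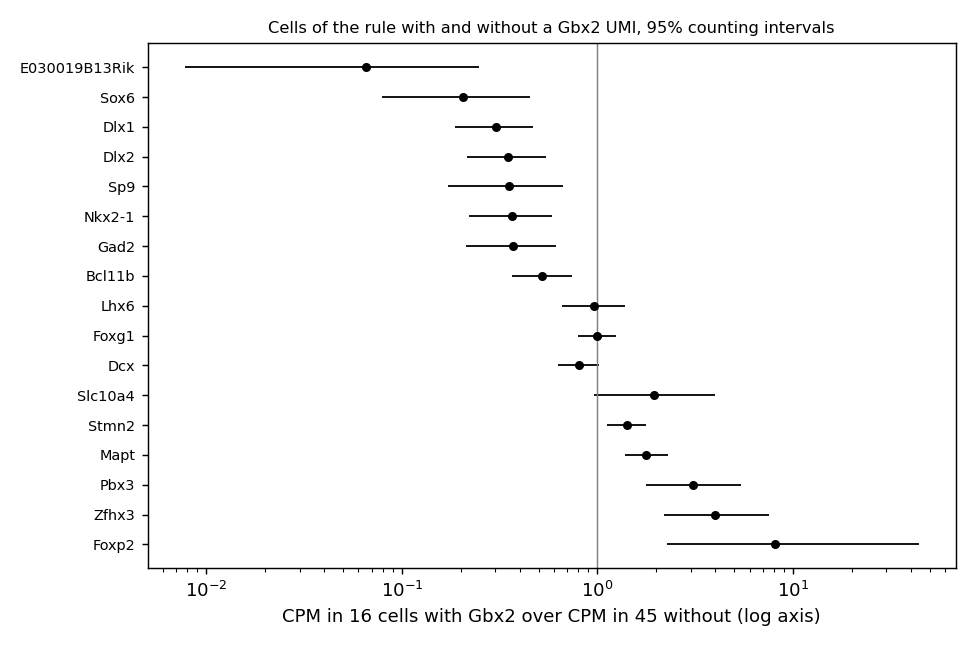
Ratio of CPM in the 16 cells with Gbx2 to CPM in the 45 without, per gene on a log axis, with 95% counting intervals. Nkx2-1 (0.368), Dlx1 (0.302) and Sox6 (0.206) lie below 1, Zfhx3 (3.99) and Pbx3 (3.08) above it.

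The 34 cells with Zic1 or Zic4 were set against the 27 without in the same way. Gbx2 and the Zic genes can each fill the sum of the rule, and 9 of the 16 cells with Gbx2 held no Zic gene, so both splits are tied by the choice of cells. In the 34 cells with Zic1 or Zic4, Nkx2-1 was at 774 CPM against 411 CPM in the 27 without, a ratio of 1.88 (1.26 to 2.88), or 3.07 (1.87 to 5.29) without dividing cells. Slc10a4 was at 2.88 (1.24 to 7.80) and Dlx5 at 1.99 (1.09 to 3.87). Mapt and Stmn2 were at 0.446 (0.345 to 0.576) and 0.498 (0.395 to 0.625). Zfhx3 was at 0.561 (0.318 to 0.982), and 0.340 (0.159 to 0.681) without the 2 deepest cells.

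A split by Nkx2-1 uses no gene of the rule. In the 41 cells with an Nkx2-1 UMI, Dlx1 at 3.14 (1.92 to 5.45), Dlx2 at 3.12 (1.85 to 5.62) and Lmo3, a LIM-only cofactor gene, at 6.68 (1.71 to 57.4) relative to the 20 without. E030019B13Rik had 54 UMIs in them and 1 in the others. Stmn2 was at 0.460 (0.367 to 0.577).

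The 9 cells with Isl1 stood out for Slc10a4, at 496 CPM against 109 CPM in the 52 without, a ratio of 4.56 (2.24 to 9.29). These 9 cells held 18 of the 36 Slc10a4 UMIs, and 5 of them held any. Dcc was at 1.87 (1.25 to 2.74) in them. Gad1, with 3 UMIs, was at 0.274 (0.0546 to 0.847), and Sox6, also with 3, at 0.217 (0.0436 to 0.664). The 9 cells had a median of 3911 UMIs against 2811, and 4 of them held Gbx2, so this split overlaps the Gbx2 split.

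The 13 cells with at least 4 cell cycle genes were set against the other 48 for genes chosen after their values were seen. The radial glia genes Vim and Fabp7 were 10.2-fold (5.99 to 18.3) and 9.83-fold higher (5.65 to 18) than in the other 48 cells. Lmo1 had 21 UMIs in them and 0 in the other 48, and was at least 19.8-fold higher. Dlx1 and Dlx2 were at 2.15 (1.56 to 2.97) and 1.93 (1.36 to 2.73). Slc10a4 had 0 UMIs in the 13 cells and 36 in the 48, at least 4.24-fold lower. Gap43, a growth cone gene, was at a ratio of 0.127 (0.0339 to 0.337), Dcc at 0.253 (0.123 to 0.469), Robo1 at 0.214 (0.0562 to 0.580) and Mapt at 0.261 (0.160 to 0.404). Nkx2-1 and Lhx6 were both found among them, each in 8 of the 13.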

How the data were processed

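RNA of single cells was prepared with the SureCell droplet kit of Illumina and Bio-Rad, per the labels' protocols. The authors deposited 1 matrix of raw counts (whole UMIs, not normalized, 14498 genes by 5777 cells). The genome build was mm10 (submitters' processing notes). Aligner, counter and annotation version: not given in the sources used here.

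UMIs were summed per group, scaled to 1000000 and compared by ratio in 4 comparisons, with exact conditional binomial (Poisson) 95% intervals. Shares of cells have Clopper-Pearson 95% intervals. A gene with 0 UMIs in a group was set to 3 counts over the group, which gives a bound. Genes with 1 or 2 UMIs kept their count and can thus pass a gene with 0 UMIs. The ranks of the smallest ratios depend in part on this limit. Rule genes of either group were left out of counts of called genes. Each cell was thinned to 1000 UMIs for shares. Doublets could not be removed, as the caller marked 0 cells and so gave no usable call. Removing the 305 cells with the highest doublet scores was an alternative and removed 0 of the 61. Principal components and Leiden clusters used 2000 variable genes without the rule genes. The comparison code was tested on simulated data. Python 3.11.15, numpy 2.4.6, scipy 1.17.1, pandas 2.3.3, scanpy 1.11.5, leidenalg 0.10.2 and matplotlib 3.10.9 were used.

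The cells, their rule and the 30 gene lists (504 genes, 448 in the matrix) were chosen with earlier results of these data known. Named genes were all marker, cholinergic, Zic and GABAergic genes. From each other list, up to 3 genes with the largest and 2 with the smallest ratio past 2-fold against cells without Lhx8 were added. So were the 15 largest and 10 smallest ratios there and the 10 largest and 10 smallest in each other comparison. Other genes named, including those of the splits within the 61 cells and the remaining list members, were chosen after their values were seen. Some genes that this choice would name are not reported here. Positions are 1-based on GRCm38. Promoter windows are those of RefSeq for GRCm38.p6, and coordinates of genes are those of GENCODE.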

Additional observations from a re-analysis of the deposited data

How the results depend on the processing

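Counts of genes called 2-fold in either direction were 2064 against cells without Lhx8, 366 against Lhx6 cells, 180 against striatal-rule cells and 592 against Zic cells. In that order, a 1.5-fold limit gave 4143, 1122, 581 and 1490. For the last 3 comparisons, 20 UMIs per gene gave 1178, 769 and 1624, 10 UMIs gave 1814, 1591 and 2252, and groups chosen on a random 50% of UMIs gave 128, 50 and 189. A mean of 100 CPM, chosen after seeing the data, gave 161 (75 higher, 86 lower), 140 (62 higher, 78 lower) against Lhx6 cells and 183 (94 higher, 89 lower) against Zic cells, and intervals beyond 1, also added then, gave 871 against cells without Lhx8. The Lhx6 count was 142 in the first run and 172 over cells of at least 3000 UMIs, the striatal count 117 with Neurod6 at 0, and the Zic count 322 without dividing cells, an alternative added after seeing the data. Fewer cells or genes were measured in several of these settings. The share meeting the rule, 1.06%, was 1.38% with a sum of 2, 0.727% with Neurod6 at 0, 0.450% after thinning, and 1.67% and 0% over the separate runs. The neighbour share, 31.8%, was 14.8% with 15 components and 28.2% with 30 neighbours, and the cause was not tested.

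Of 2456 gene values under alternatives, 7 reversed, all against cells without Lhx8. On the log2 scale these were Dcn at 0.74 with equal weight per cell and 0.61 on split UMIs, Cenpf at -0.024 with Neurod6 at 0, and on split UMIs Cdh8 at -0.61, Scn8a at 0.76, E2f8 at -0.060 and P2ry12 at 0.69. The cause was not tested. In all, 114 values, these 7 among them, changed their 2-fold call. With Neurod6 at 0, which leaves 42 of the 61 cells, 45 of 96 values against cells without Lhx8 moved by over 1.5 times. No alternative could be run on the second run alone, which holds 0 of the 61 cells. No paired analysis was possible because the cells carry no sample names and all samples form 1 group. With 201679 UMIs in the 61 cells, 1 UMI is about 5 CPM, so genes under the limit of 14.9 CPM that a count of 0 allows could not be compared.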
